A study of Homo sapiens with 12 samples.

Results

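The baseline transcriptome of CAMA-1 cells was read from the 3 vehicle-treated libraries of a series of 12, chosen by their treatment label, DMSO. CAMA-1 is an established human breast cancer cell line of wild-type genotype per the labels, and the DMSO cells received the solvent of the drugs and no drug. The other 9 libraries came from cells given abemaciclib, fulvestrant or their combination and were not used. RNA was taken from whole cell pellets of a single line in culture, so each level is an average over a culture. The library kit is made to copy polyadenylated transcripts from their 3′ ends. A read was taken to mark a transcript end whatever the length of the transcript, which was not tested. Levels of different genes were therefore set side by side, without division by length, as reads per 1000000 reads on named genes (CPM).

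The mammary epithelium has an inner luminal layer, marked by simple keratins and kept in its state by the transcription factors GATA3, FOXA1 and the oestrogen receptor (ER, encoded by ESR1), and an outer basal layer marked by KRT5, KRT14 and TP63. In ER-positive breast cancer, ER bound to oestrogen switches on genes that include CCND1, whose product cyclin D1 joins CDK4 or CDK6. This kinase phosphorylates the retinoblastoma protein, which releases E2F factors and lets the cell enter S phase.

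The 3 libraries held 3299119, 5164667 and 4736469 reads on named genes, so that 1 read was worth between 0.194 and 0.303 CPM. A gene was taken as detected at 1 CPM or more in all 3 libraries, and as being at the floor when the 3 libraries together held 3 reads or fewer. A gene with no read among 13200255 may still have a level of up to 0.227 CPM, a limit that covers counting error only. Of 60612 annotated rows, 11763 (19.4%) were detected. Of 19342 protein-coding genes 10547 (54.5%) were detected, the share to set beside each list count below, and 7458 (38.6%) were at the floor. The lists were chosen with earlier results of these data known, so the contrast of shares is a description only. Pearson correlations of log2(CPM + 1) across detected genes lay between 0.985 and 0.991 for pairs of libraries. Replicate 1, the shallowest library, stood somewhat apart. The common biological coefficient of variation was 0.0849 over 3 libraries and 0.0479 without replicate 1. Levels below are means ± SD of the 3 libraries. Here 2 genes are said to differ beyond the spread when their 3 values did not overlap. That spread is among libraries only. A shortfall in the counting of a gene that all libraries share does not show in it.

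All 5 marker genes of the line were detected, at levels that spanned a 32.4-fold range. GATA3, a zinc-finger factor of luminal identity (GRCh38 chr10:8045378-8075198), measured 3244, 3120 and 2879 CPM and ranked 20th of all genes and 10th among nuclear protein-coding genes. CCND1 (chr11:69641156-69654474) measured 637, 627 and 626 CPM at rank 181. It varied little, with an SD of 5.98 CPM. KRT18, a keratin of simple epithelia (chr12:52948871-52952906), measured 554, 521 and 522 CPM at rank 232. FOXA1, the pioneer factor that opens chromatin for ER (chr14:37589552-37596059), measured 240, 230 and 224 CPM at rank 708. ESR1 (chr6:151656691-152129619) was the lowest of the 5 with 101, 93.9 and 90.4 CPM at rank 2076. No 2 of the 5 overlapped, and leaving out replicate 1 moved ESR1 to 92.1 CPM and GATA3 to 2999 CPM.

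**Figure D1:**
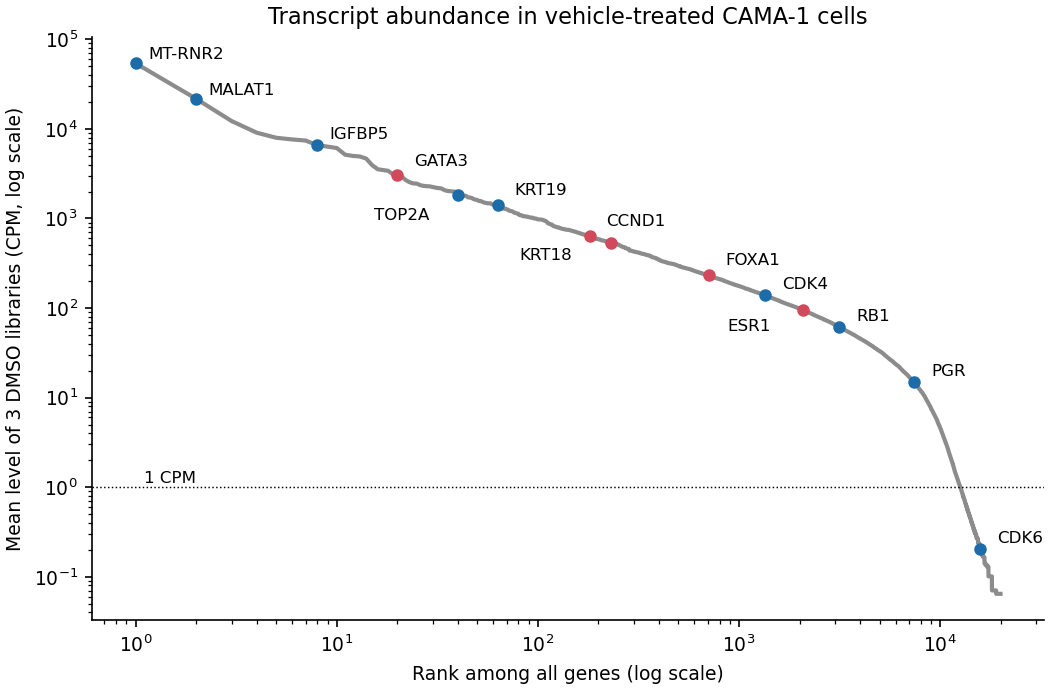
Mean level of each gene with at least 1 read in the 3 DMSO libraries (CPM, log scale) against its rank (log scale), with the 5 marker genes in red, other named genes in blue and a dotted line at 1 CPM. GATA3 sits among the 30 highest genes, ESR1 at rank 2076 and CDK6 below the 1 CPM line.

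The luminal transcription factors were nearly all expressed, with 18 of 19 listed genes detected and a median of 125 CPM, against a median of 3.86 CPM over all protein-coding genes. GATA3 was 3.01-fold higher than the next, TRPS1, a GATA-type repressor at 1023 ± 37.5 CPM. XBP1, which drives the secretory and unfolded protein response, followed at 808 ± 22.1 CPM. The AP-2 factor TFAP2A measured 565, 701 and 669 CPM, with replicate 1 below the others. The T-box repressor TBX3 measured 267 ± 6.88 CPM, beyond the spread of FOXA1 although only 1.15-fold higher. TFAP2C (174 ± 8.16 CPM) and the ETS factor SPDEF (152 ± 17.6 CPM) overlapped each other. The grainyhead factor GRHL2 stood at 54.9 ± 4.62 CPM and ELF3 at 34.7 ± 1.16 CPM. TFAP2B was the single listed factor at the floor, with 1 read in 3 libraries.

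The luminal epithelial genes were detected in 22 of 23 cases, with a median of 144 CPM. The simple keratins fell in the order KRT19 (1403 ± 50.5 CPM), KRT18 (533 ± 18.9 CPM), KRT8 (274 ± 15.3 CPM) and KRT7 (217 ± 26.9 CPM), and each step was beyond the spread. KRT18 and KRT8 encode the partners of 1 filament. The KRT18 transcript counted 1.94-fold higher, with a range of 1.79 to 2.11 over libraries. That range does not cover a shortfall in counting that all libraries share. The tight junction genes CLDN3 (336 ± 33.3 CPM), CLDN7 (139 ± 20.9 CPM) and CLDN4 (108 ± 10.8 CPM) and the adhesion gene EPCAM (241 ± 15.1 CPM) all had means above 100 CPM. ESRP1, a splicing regulator of epithelial cells, measured 169 ± 6.03 CPM. CDH1, which encodes the adherens junction protein E-cadherin, was lower than these at 49.7, 72.4 and 69.9 CPM, with replicate 1 below the others. AGR2 measured 10.3 ± 2.45 CPM and its relative AGR3 had no read.

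**Figure D2:**
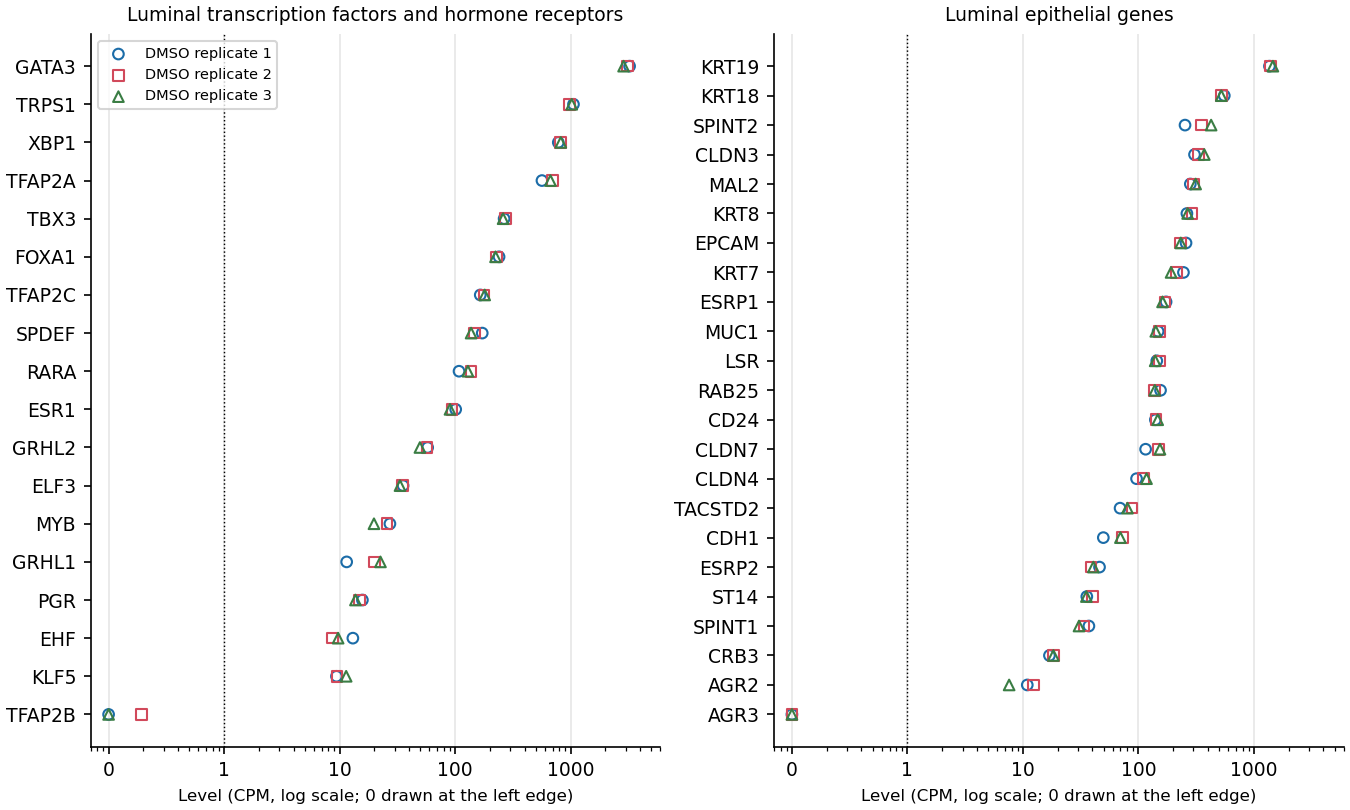
Level of luminal transcription factors and hormone receptors (left) and luminal epithelial genes (right) in each DMSO library (CPM, log scale, 0 drawn at the left edge), 1 symbol per replicate, with a dotted line at 1 CPM. The replicates lie close together for most genes, and TFAP2B and AGR3 are at the floor.

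Among steroid receptor genes, ESR1 overlapped NR3C1, the glucocorticoid receptor gene, which measured 94.3, 89.1 and 82.8 CPM. PGR, the progesterone receptor gene and itself an oestrogen-induced gene, measured 15.8, 14.9 and 13.7 CPM, 6.43-fold below ESR1. ESR2, which encodes the second oestrogen receptor, had no read in any library, so ESR1 was at least 416-fold higher against a floor of 3 reads over the group. The mineralocorticoid receptor gene NR3C2 also had no read. ESR1, NR3C1 and PGR all had their highest value in replicate 1 and their lowest in replicate 3.

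Of all 48 nuclear receptor genes, 25 (52.1%) were detected, close to the 54.5% of all protein-coding genes, and 22 were at the floor. The retinoid receptors were led by RXRA, the shared dimer partner (185 ± 3.60 CPM), and RARA (125 ± 15.2 CPM), an oestrogen-responsive gene. RARA exceeded RARG 5.46-fold and RXRA exceeded RXRB 5.00-fold, while RARB and RXRG had no read. NR2F6 (151 ± 5.38 CPM) and the thyroid hormone receptor gene THRA (115 ± 12.4 CPM) also had means above 100 CPM, and the vitamin D receptor gene VDR measured 61.2 ± 3.59 CPM. PPARG, NR2F1 and NR2F2 had no read, nor had the liver receptors HNF4A and NR1I2.

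The 17 coregulators and histone-modifying enzymes that act with ER were all detected, from 17.0 to 278 CPM with a median of 82.5 CPM. MED1, the Mediator subunit that contacts nuclear receptors, was highest at 278 ± 29.6 CPM, followed by the corepressor NCOR1 (193 ± 5.39 CPM) and the enhancer methyltransferase KMT2C (178 ± 12.2 CPM). The acetyltransferases CREBBP and EP300 measured 161 ± 24.3 and 107 ± 12.7 CPM. Among the p160 coactivators, NCOA3 (85.1 ± 4.26 CPM) exceeded NCOA2 (57.2 ± 6.23 CPM) and NCOA1 (17.0 ± 0.967 CPM) beyond the spread. The H3K4 demethylase genes were ordered KDM5A (99.0 ± 4.30 CPM), KDM5B (82.5 ± 8.13 CPM) and KDM5C (39.3 ± 5.03 CPM), again without overlap.

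Oestrogen-induced genes were detected in 26 of 28 cases (92.9%), against 54.5% of all protein-coding genes, but their levels ran from 2.05 to 808 CPM. Beside XBP1 and CCND1, the highest were the carbonic anhydrase gene CA12 (369 ± 25.8 CPM), the zinc transporter gene SLC39A6 (196 ± 9.61 CPM) and the steroid receptor co-chaperone gene FKBP4 (194 ± 11.7 CPM). GREB1, an ER cofactor, measured 87.9, 81.3 and 79.2 CPM, and the secreted peptide gene TFF1 measured 63.7, 58.3 and 63.3 CPM. MYC was far from steady at 8.79, 17.0 and 28.1 CPM. BCL2 (8.70 ± 0.811 CPM), IGF1R (7.12 ± 0.839 CPM) and TFF3 (6.59 ± 1.68 CPM) were low. PDZK1 had 10 reads and SCUBE2 none.

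Of the 18 genes that make or inactivate oestrogens, 10 (55.6%) were detected, again close to the 54.5% of all protein-coding genes. HSD17B10 and HSD17B4, dehydrogenases that can oxidise oestradiol, measured 115 ± 1.52 and 54.3 ± 2.55 CPM. HSD17B1, which forms oestradiol from oestrone, measured only 1.99 ± 0.216 CPM, and the steroid sulphatase gene STS 4.11 ± 1.24 CPM. CYP19A1, the aromatase gene, and SULT1E1, the oestrogen sulphotransferase gene, had no read.

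Membrane receptors were detected in 24 of 42 cases (57.1%), close to the 54.5% of all protein-coding genes, and 12 had no read. The collagen receptor gene DDR1 led at 393, 463 and 450 CPM, followed by FGFR4 at 263, 251 and 246 CPM. FGFR4 exceeded FGFR1 (26.8 ± 2.49 CPM) 9.45-fold and FGFR2, with 5 reads in 3 libraries, 578-fold (range 290 to 1294 over libraries). In the ERBB family, ERBB3 was highest at 180, 201 and 181 CPM, 3.44-fold above ERBB2. ERBB2 measured 41.8, 56.0 and 65.4 CPM, overlapped ERBB4 (44.6 ± 4.58 CPM), and was lowest in replicate 1. EGFR had no read, and ERBB3 was at least 830-fold higher against 3 reads over the group. The prolactin receptor gene PRLR (118 ± 6.59 CPM) and the growth hormone receptor gene GHR (53.0 ± 6.82 CPM) were both detected. INSR exceeded IGF1R 4.55-fold. TGFBR1, which encodes one chain of the TGF-beta receptor, measured 38.1 ± 0.352 CPM, whereas TGFBR2, which encodes the chain that binds the ligand, had no read. KIT, MET, PDGFRA, PDGFRB, ALK, FLT1 and KDR had no read either.

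The regulators of the G1 phase centred on CCND1 and CDK4 among the cyclin D kinases. CCND1 exceeded CCND3 (88.2, 82.5 and 74.7 CPM) 7.70-fold, and CCND2 had no read, so CCND1 was at least 2768-fold higher. CDK4 measured 119, 139 and 159 CPM, while CDK6 had 2 reads in all, both in replicate 1. The ratio of CDK4 to CDK6 reads was 932.5, with a 95% exact binomial interval of 258 to 7706. CDK2, the partner of E-type cyclins, measured 149, 201 and 229 CPM and overlapped CDK4. In each library CDK2 was the higher of both, by 1.26- to 1.44-fold. The E-type cyclin genes were lower, with CCNE2 at 32.4 ± 1.58 CPM and CCNE1 at 15.0 ± 2.29 CPM.

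The genes that restrain this step were all detected. RB1, which encodes the retinoblastoma protein, measured 49.4, 61.0 and 74.3 CPM and overlapped its relative RBL2 (60.3, 46.5 and 44.8 CPM), while RBL1 was lower at 33.3 ± 0.832 CPM. Among the CDK inhibitors, CDKN2A (77.9 ± 6.70 CPM), the gene of p16 and p14ARF, exceeded CDKN1B (p27, 54.2 ± 2.06 CPM), and CDKN1B exceeded CDKN1A (p21, 15.6 ± 1.40 CPM) 3.48-fold. A 3′ count does not separate the transcripts of p16 and p14ARF, which share their last exons. CDKN2B and CDKN1C were lowest, at 7.34 ± 0.584 and 7.31 ± 1.20 CPM, and overlapped.

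All 8 E2F genes listed were detected. E2F3 (147 ± 8.60 CPM) and E2F1 (96.6 ± 4.38 CPM) were highest, and the first 3, with E2F2 at 46.3 ± 5.99 CPM, did not overlap. E2F4, which acts mostly as a repressor with the pocket proteins, measured 27.8 ± 3.90 CPM and overlapped E2F6 (23.8 ± 4.43 CPM). E2F8, E2F5 and E2F7 followed at 13.8, 7.97 and 4.92 CPM. Of the 34 genes in the G1 list 30 were detected. The exceptions were CDK6, CCND2, MYCN (1.61 ± 0.895 CPM, under 1 CPM in replicate 1) and MYCL (12 reads). RB1, CDK2, CDK4 and MYC shared the pattern of lowest value in replicate 1 and highest in replicate 3.

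**Figure D3:**
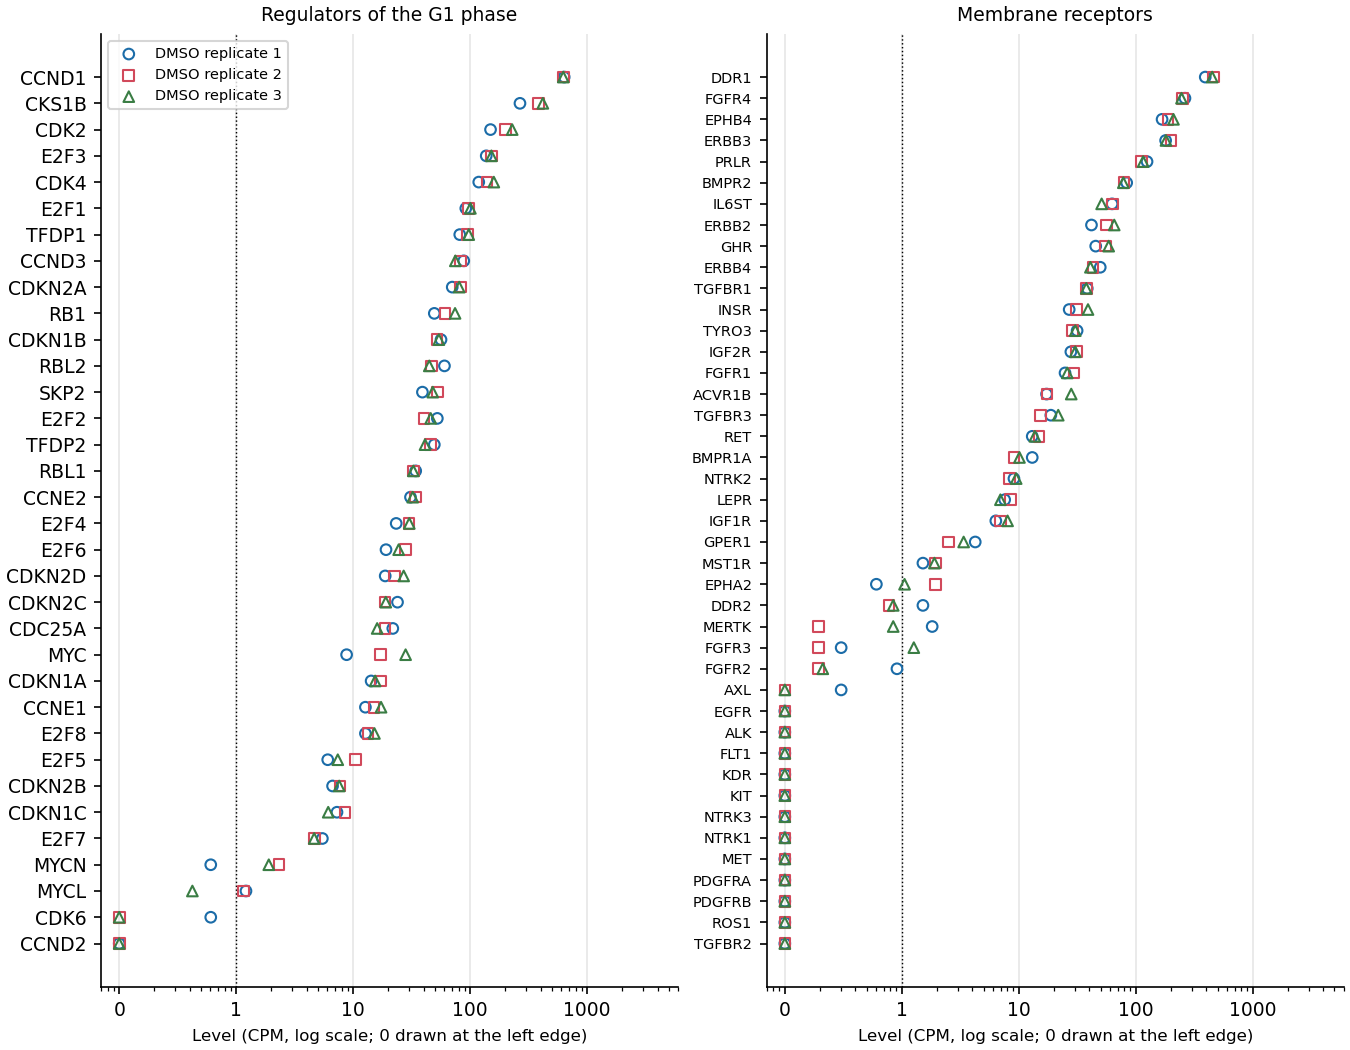
Level of the 34 G1 regulators (left) and the 42 membrane receptors (right) in each DMSO library (CPM, log scale, 0 drawn at the left edge), 1 symbol per replicate, with a dotted line at 1 CPM. CCND1 is the highest G1 regulator and CDK6 and CCND2 the lowest, and 24 receptors led by DDR1 and FGFR4 are detected, 12 that include EGFR and MET have no read, and 6 such as FGFR2 have reads but are not detected.

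Proliferation genes were expressed throughout. All 30 S phase genes were detected, with a median of 79.1 CPM, led by the ribonucleotide reductase gene RRM1 (337, 440 and 421 CPM), the maintenance methyltransferase gene DNMT1 (329, 386 and 373 CPM) and the helicase gene MCM3 (281 ± 3.50 CPM). PCNA, the sliding clamp of the replication fork, measured 246, 202 and 189 CPM. The 6 MCM helicase genes lay between 77.0 and 281 CPM. UHRF1 (9.39 ± 2.40 CPM) and POLE2 (8.00 ± 2.99 CPM) were lowest.

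The genes of the G2 phase and mitosis were detected in 29 of 30 cases, with a median of 91.5 CPM. TOP2A, the topoisomerase that untangles sister chromosomes, measured 1924, 1783 and 1805 CPM at rank 40, the highest of the 60 cell cycle phase genes. CENPF (594 ± 111 CPM) and MKI67 (521 ± 53.6 CPM) came next, and both were highest in replicate 1. CCNB1 (105 ± 5.94 CPM) and CDK1 (100.0 ± 7.95 CPM), the cyclin and kinase that start mitosis, overlapped. FOXM1, a factor that drives these genes, measured 54.6 ± 2.25 CPM. NUSAP1, with 5 reads, was the exception, and 91.4% of the bases at its annotated 3′ ends lie in exons of another gene on the same strand. PRC1 has 86.6% of such overlap and was detected at 49.7, 56.5 and 49.8 CPM, and the part of overlap in the value of NUSAP1 was not tested.

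Both groups carry known promoter elements, which are shown for 4 members of each list that hold one. MCM4, an S phase gene at 136 CPM, was not considered for a window. The 4 S phase genes shown are therefore not given as the highest that hold the element. Sequences are from RefSeq (GRCh38.p14), which gave a single promoter of 300 bases, 250 before and 50 after the start, for 11165 of the 19342 protein-coding genes, and for 21 of the 30 S phase and 19 of the 30 G2 and M genes. Each window below has 30 bases, reads 5′ to 3′ on the strand of the gene and lies wholly before the start. The E2F letters searched were TTTCCCGC and TTTGGCGC on both strands, and capitals mark the match nearest the start.
MCM3 (chr6:52284898-52284927, minus strand): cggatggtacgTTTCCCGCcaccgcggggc
CDT1 (chr16:88803743-88803772, plus strand): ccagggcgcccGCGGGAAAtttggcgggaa
TYMS (chr18:657603-657632, plus strand): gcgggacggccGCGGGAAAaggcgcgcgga
MCM6 (chr2:135876515-135876544, minus strand): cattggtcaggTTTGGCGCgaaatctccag
These 4 genes measured 281, 91.8, 82.8 and 81.4 CPM. The letters occurred in 10 of the 21 S phase promoters (47.6%), in 1 of the 19 G2 and M promoters (5.26%) and in 3.20% of all 11165.

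The CHR element (cell cycle genes homology region, TTTGAA on both strands) binds the complexes that time mitotic genes. Its windows are given for 4 G2 and M genes with a match wholly before the start. They are not given as the highest that hold the element.
TOP2A (chr17:40418030-40418059, minus strand): ctgattggtttaTTCAAAcaaaccccggcc
MKI67 (chr10:128126435-128126464, minus strand): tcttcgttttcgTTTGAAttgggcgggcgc
PLK1 (chr16:23678848-23678877, plus strand): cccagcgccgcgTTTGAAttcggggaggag
CDCA8 (chr1:37692481-37692510, plus strand): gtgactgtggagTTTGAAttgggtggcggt
In MKI67, PLK1 and CDCA8 the match begins 29, 29 and 23 bases before the start, and in TOP2A 151 bases before it. The letters occurred in 14 of 19 G2 and M promoters (73.7%), in 1 of 21 S phase promoters (4.76%) and in 12.3% of all promoters. CCAAT, the box bound by NF-Y, was found on either strand in 15 of the 19 G2 and M promoters (78.9%), 11 of the 21 S phase promoters (52.4%) and 37.4% of all. A match is a description of the letters in the window. It does not show that a factor was bound in these cells.

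Genes often altered in breast cancer were detected in 24 of 25 cases (96%), against 54.5% of all protein-coding genes. AKT2 measured 315 ± 45.7 CPM and AKT1 62.1, 97.4 and 105 CPM, without overlap. ZNF703, a luminal oncogene, measured 257 ± 19.1 CPM and MDM2 127 ± 13.1 CPM. PIK3CA (41.7 ± 4.69 CPM) and PIK3R1 (29.4 ± 2.89 CPM), which encode the catalytic and regulatory subunits of 1 lipid kinase, did not overlap. These are levels of transcript only, and the counts carry no information on mutations.

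Genes of the breast secretory list ranged from no read to 317 CPM. Of 13 listed, 5 (38.5%) were detected, against 54.5% of all protein-coding genes. ANKRD30A, a breast differentiation antigen, measured 391, 291 and 269 CPM, the small mucin gene MUCL1 55.8, 61.2 and 52.4 CPM and the mammaglobin gene SCGB2A2 29.7, 33.9 and 31.9 CPM. The milk protein genes CSN1S1, CSN2, CSN3 and LALBA had no read, nor had PIP and LTF. None of the 6 luminal progenitor genes was detected. TNFRSF11A, with 13 reads, was the highest of them, and KIT had none.

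The most abundant transcripts came from the mitochondrial genome and the translation machinery. Mitochondrial transcripts took 12.3 ± 0.295% of reads, of which the 2 ribosomal RNAs took 6.63 ± 0.708% and the 13 mRNAs 5.56 ± 0.620%. MT-RNR2 alone measured 60325, 52662 and 49120 CPM. The rRNA share was highest in replicate 1 and lowest in replicate 3 and the mRNA share ran the other way, so that the sum changed less than its parts. MALAT1, a nuclear long non-coding RNA, was second of all genes at 21687 ± 1360 CPM. Ribosomal protein genes took 9.03 ± 0.155% of reads, with 75 of 77 detected and RPS3 highest at 6120 ± 468 CPM. The top 10 genes held 13.9% of reads and 510 genes held 50%.

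Among nuclear coding genes outside the ribosome, IGFBP5, a secreted binder of insulin-like growth factors, was highest with 6698, 6760 and 6338 CPM, and it exceeded IGFBP4 38.5-fold. PTMA (5160 ± 139 CPM), a small acidic chromatin protein gene, came next. The HSP90 genes HSP90AB1 and HSP90AA1, which encode the chaperone that holds steroid receptors ready for ligand, measured 4995 ± 187 and 4926 ± 163 CPM and overlapped. NUCKS1 (3937 ± 107 CPM), GATA3, HSPB1 (2540 ± 204 CPM), TUBB (2449 ± 446 CPM) and TUBA1B (2356 ± 262 CPM) completed the coding genes of the top 30. GATA3 was the only transcription factor of lineage among these 30. All 20 chaperone genes had means above 100 CPM. Of the 18 glycolysis genes 16 were detected, led by ENO1 (913 ± 33.9 CPM) and PKM (744 ± 11.2 CPM).

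Genes of other lineages were nearly all near or at 0. Over 11 lists that together hold 138 genes, 9 (6.52%) were detected, against 54.5% of all protein-coding genes, and 112 were at the floor, of which 98 had no read. The summed level of all 138 lay between 165 and 203 CPM per library, and KRT10, a keratin of the upper epidermis, gave most of it at 90.3, 112 and 123 CPM. Without KRT10 the sum was 74.3 to 79.4 CPM. KRT1, the usual partner of KRT10, had no read.

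Within the basal and myoepithelial list, CDH3 (P-cadherin, 16.7 ± 2.04 CPM), MYLK (9.68 ± 4.04 CPM) and KRT16 (1.49 ± 0.329 CPM) were the 3 detected members of 16, and the defining markers KRT5, KRT14 and TP63 had no read. Within the mesenchymal and fibroblast list, COL1A1 (14.5, 18.8 and 15.8 CPM), TWIST1 (10.0, 6.58 and 6.12 CPM) and COL3A1 (3.44 ± 0.180 CPM) were detected of 18. VIM, the intermediate filament gene of mesenchymal cells, had 11 reads in all, a level of 0.812 CPM, and ZEB1 had none. COL1A1 was thus present without COL1A2, the gene of its partner chain, which had no read.

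None of the 19 immune, 9 endothelial, 7 erythroid, 12 neural, 9 hepatocyte or 12 muscle genes was detected. The highest in each were CD14 with 9 reads, VWF with 4, HBA1 with 8, DCX with 10 and ACTA1 with 11. PTPRC, the pan-leukocyte gene, and PECAM1, of endothelium, had no read, and all 9 hepatocyte genes were at 0. The remaining detected members were SOX2 (1.58 ± 0.534 CPM) of 9 pluripotency genes and MITF (7.66 ± 1.38 CPM) of 6 melanocyte genes. SOX2 fell below 1 CPM in at least 1 library when libraries were thinned to equal depth. The same thinning left 2 of the 3 detected members of the basal and myoepithelial list.

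**Figure D4:**
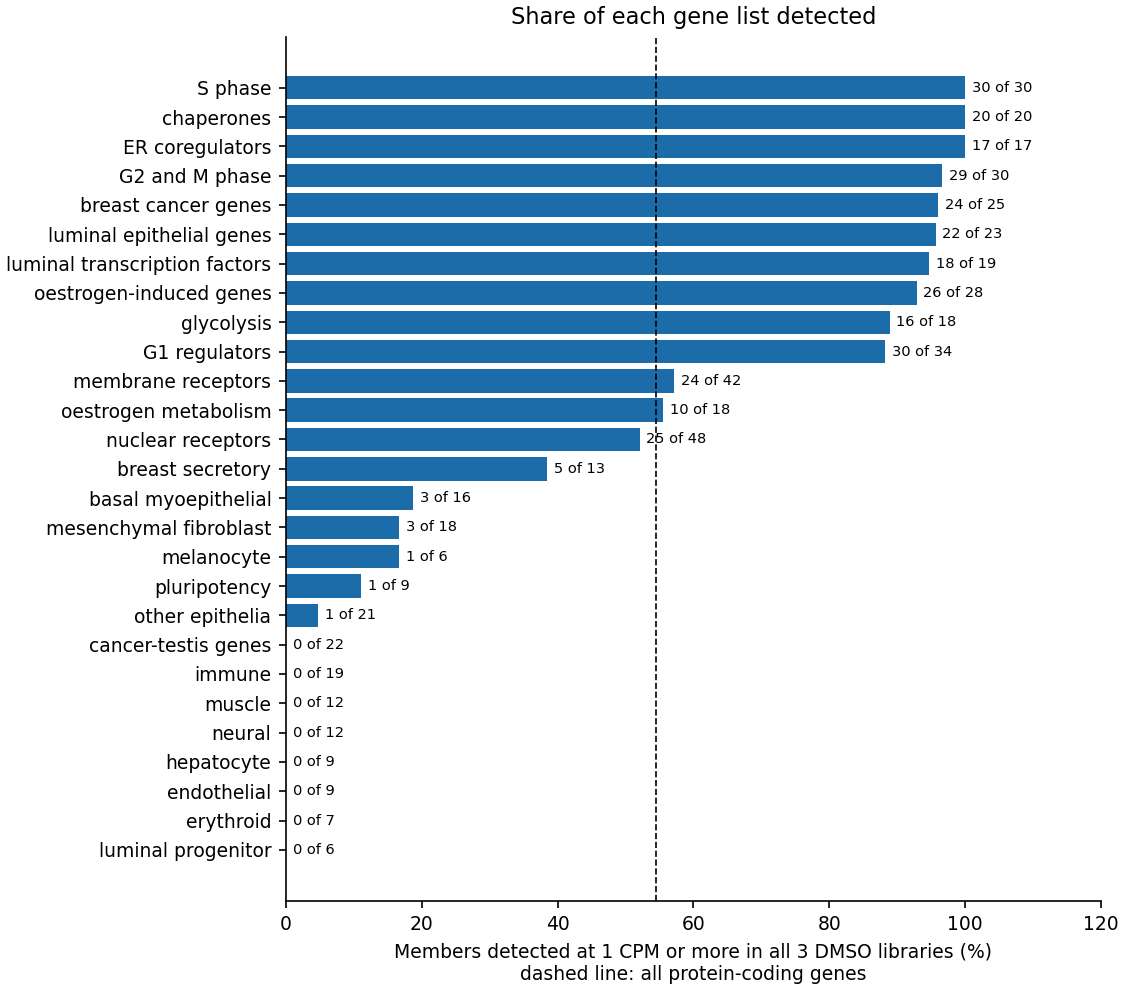
Share of each gene list detected at 1 CPM or more in all 3 DMSO libraries (bars, in percent, from 0), with the number detected of the number listed, beside the share of all protein-coding genes (dashed line, 54.5%). The cell cycle and coregulator lists and the lists of luminal transcription factors and luminal epithelial genes lie above 88%, and the lists of luminal progenitors and of other lineages at or below 18.8%.

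Over all promoters, the share of genes detected rose with CpG content. Expected CpG is the product of the C and G counts over the length. Of 1430 genes whose promoters had less than 0.2 of the expected CpG, 5.66% were detected and 89.0% were at the floor. Of 1401 genes at the expected number or more, 83.4% were detected and 12.1% were at the floor. The share detected rose at each step between, from 12.4% to 32.3%, 62.7% and 78.3%. The level of the detected genes moved less, with a median of 13.7 CPM in the lowest and 39.2 CPM in the highest class. The median ratio was 0.967 in the S phase list and 0.326 over the 60 genes of other lineages that had a single promoter. The luminal epithelial list went against this order. Its 8 genes with a single promoter had a median ratio of 0.392 and 7 of them were detected. The 6 luminal transcription factors with a single promoter had 0.663, with 5 detected. MET, with no read, was among the exceptions, at 0.850 of the expected CpG. Genes are not independent replicates, and no test was made.

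**Figure D5:**
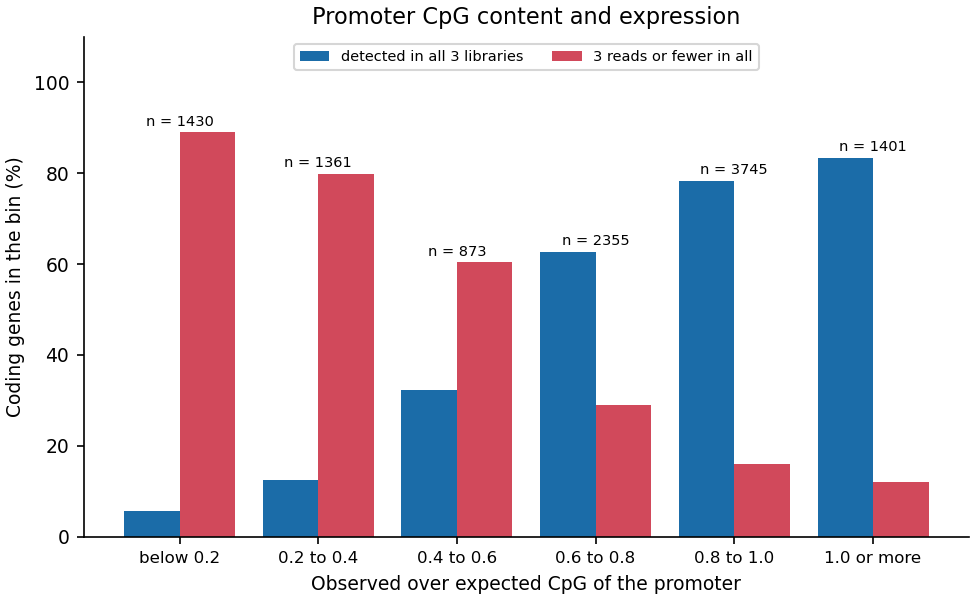
Share of protein-coding genes detected in all 3 DMSO libraries (blue) and share with 3 reads or fewer over the 3 libraries (red), in percent, by the ratio of observed to expected CpG in the promoter, with the number of genes in each class. The detected share climbs from 5.66% to 83.4% across the classes.

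The TATA box, with the letters TATAAA searched on the strand of the gene within 50 to 10 bases before the start, ran the opposite way, with 13.4% of promoters in the class of lowest CpG content and 2.28% in the highest. It was present in 1.69% of promoters of detected genes and 9.01% of those at the floor. The chaperone genes, all detected, were an exception, with a TATA box in 3 of 12 promoters, against 6 of 60 in the lists of other lineages. The first 4 genes in alphabetical order among the members of other lineages that had both a TATA box and no expression above the floor are shown, with the box in capitals.
AFP (chr4:73436180-73436209, plus strand): gcctgaaaagagTATAAAagaatttcagca
CYP3A4 (chr7:99784196-99784225, minus strand): ccttctctagcaTATAAAcaatccaacagc
IVL (chr1:152908504-152908533, plus strand): gctgcagaatgaTATAAAgagtgccctgac
MYH2 (chr17:10549672-10549701, minus strand): catagctatccaTATAAAagagcccttgga
AFP and CYP3A4 are liver genes, IVL a gene of the cornified epidermis and MYH2 a gene of fast muscle. All had no read. In AFP, CYP3A4, IVL and MYH2 the box begins 29 to 31 bases before the start.

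Some genes that growing cells use were also at or near 0. ALDOA, an enzyme gene of glycolysis, had no read, LDHB had 1 and PGAM1 measured 2.78 ± 0.620 CPM. Of the bases at the annotated 3′ ends, 94.5% in ALDOA and 80.1% in LDHB lie in exons of another gene on the same strand, and in PGAM1 none do. Over all protein-coding genes with no overlap on the other strand, 7.05% of 241 with such overlap above 95% were detected, against 52.6% of 14845 with none. With overlap above 95% on the opposite strand alone, 54.4% of 215 genes were detected. The part of overlap in any single value was not tested. EEF1A1, which has many near-identical copies in the genome, measured only 23.6 ± 6.66 CPM, and it was picked after its value was seen, as an abundant transcript of most cells. Of the genes given above as having no read or at the floor, CDK6, CCND2, EGFR, MET, TGFBR2, ESR2, KRT5, KRT14 and TP63 have no same-strand overlap at their 3′ ends. PGAM1 and EEF1A1 have none either, so its absence does not show that a value is free of a shortfall in counting.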

How the data were processed

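The files hold counts of reads for each gene symbol as deposited, without normalization. The authors trimmed reads with BBDuk, aligned them to GRCh38 with STAR and counted them with featureCounts 2.0.1 on a GENCODE annotation. Whether counting used the strand is not given in the sources used here. No molecular identifiers are named, so reads are not independent molecules and counting limits cover counting error only.

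The 3 DMSO libraries were taken from the treatment label. The 44 rows with no gene name held 0 reads. CPM was computed as counts over the library's total on named genes. No group was compared, so no test was run. The labels call the libraries biological replicates. Genes sharing a symbol (1079 rows, 0.0172% of reads) were kept apart and left out of the lists. Types, coordinates and overlap of the last 300 bases of transcripts came from GENCODE v44 (GRCh38), and promoters from RefSeq. The common biological coefficient of variation came from edgeR 4.0.16 (R 4.3.3) with TMM factors over detected genes, tested on simulated counts. DESeq2 1.42.0 gave alternative size factors.

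Members and gene lists were chosen with earlier results of these data known. Genes named were the 5 markers, the 30 highest genes, members of the lists (for other lineages, those detected and the 3 highest), the ends of the lncRNA, histone, ribosomal protein and mitochondrial classes, and the 10 genes above 50 CPM with the largest coefficient of variation. Defining markers of other cell types and genes named to show an absent partner were added whatever their level. Alternatives were other detection rules, scaling factors, totals without mitochondrial transcripts, libraries thinned to equal depth, summed symbols, no filter on low counts and leaving out each replicate. Some members of the lists are counted but not reported by name here.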

Additional observations from a re-analysis of the deposited data

How the results depend on the processing

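The number of detected genes, 11763, ranged from 10857 (threshold of 2 CPM) to 12773 (0.5 CPM) over the detection rules, and was 11763 with TMM or DESeq2 factors, 11990 without mitochondrial transcripts, 11647 after thinning and 11757 with symbols summed. Both luminal lists kept 18 and 22 detected members under every alternative run, and the lists of other lineages had between 7 and 13 detected of 138. Leaving mitochondrial transcripts out of the totals raised every nuclear level, by a median of 0.19 on the log2 scale, to 108.5 CPM for ESR1, 3513 for GATA3, 264 for FOXA1, 607 for KRT18 and 718 for CCND1, moved GATA3 to rank 11 and CCND1 to rank 167, and put the ribosomal protein share at 10.3%. The coefficient of variation was 0.0859 with no filter on low counts and ranged from 0.0479 (without replicate 1) to 0.112 (without replicate 2) when 1 library was left out, and only leaving out replicate 1 moved it by over 1.5 times. Without replicate 1, 12049 genes were detected, 510 genes holding 50% of reads became 511, and the marker ranks moved to 2154 for ESR1 and 21 for GATA3.

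Depth limits what is said of low genes: 1 read is worth 0.303 CPM in replicate 1, and lists with few members near this level moved most, such as cancer-testis genes from 0 to 1 detected without replicate 1. The effect of near-identical copies on counts was not tested. No paired analysis was made because a single group was described.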

Other observations

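Long non-coding RNAs took a small share of reads once MALAT1 was set aside. The other 4476 rows of this type held 0.622 ± 0.0118% of reads, and 350 were detected. Rows whose symbol has no type in GENCODE v44 are not in this count. They held 0.931% of reads, and 542 of them were detected. The highest were SNHG6 (361 ± 24.5 CPM), SNHG29 (287 ± 25.1 CPM), ZFAS1 (272 ± 8.36 CPM), NEAT1 (219 ± 27.5 CPM) and SNHG25 (205 ± 15.5 CPM). SNHG7, SNHG5, HCG18, SNHG16 and NORAD followed, between 201 and 141 CPM. Of these 10, 6 are small nucleolar RNA host genes by name, and ZFAS1 also hosts such RNAs. MALAT1 exceeded all remaining rows of this type together, at 2.17 ± 0.136% of reads.

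Replication-dependent histone genes, whose mRNAs mostly end without a poly(A) tail, held 0.154 ± 0.0263% of reads, and 20 of 66 were detected. H4C3 gave most of it at 1305, 1046 and 827 CPM, followed by H1-2 at 240 ± 17.8 CPM and H2AC6 at 55.1 ± 4.36 CPM. H4C3 was highest in replicate 1 and lowest in replicate 3, as was the class as a whole, at 0.180%, 0.153% and 0.128%. H4C12, H4C13, H3C11, H2AC15 and H2AC16 were among those with no read.

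Mitochondrial mRNAs did not appear at equal levels, although those on the same strand are cut from long shared precursors. MT-CO3 was highest at 9074 ± 731 CPM and MT-ND6 lowest at 127 ± 37.6 CPM. MT-ND6 is the single mRNA on the other strand of this genome. MT-CO1, MT-ND1 and MT-ND2 measured 1503, 1829 and 2210 CPM. Among ribosomal protein genes RPL17 (7 reads) was not detected, and RPL36A measured 21.4 ± 1.81 CPM.

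The cancer-testis genes, usually limited to the germ line, were not detected. Of 22, none was detected, 21 were at the floor and 19 had no read. PRAME, the highest, measured 0.606, 1.16 and 2.11 CPM.

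Among genes at 50 CPM or more, the 10 with the largest spread were led by ANO8 (24.6, 58.5 and 97.1 CPM, a coefficient of variation of 60.5%), CD9 (67.0, 140 and 181 CPM) and RCC2 (231, 556 and 600.2 CPM). NEURL1B, GNB2, PIP4K2C, SF3B4 and NUP93 had the same order, lowest in replicate 1 and highest in replicate 3, as had the pseudogene MTATP6P1. RNU4ATAC, a small nuclear RNA of the minor spliceosome, ran the opposite way at 299, 175 and 141 CPM. Detected genes from 100 to 1000 CPM had a median coefficient of variation of 6.27%, against 3.63% from counting alone. Those from 1 to 10 CPM had 21.9%, against 22.8%. These figures are not strictly comparable, because the observed ones rest on 3 values per gene and on genes kept by the detection rule. They do not show that low genes vary by counting alone. The part of depth or handling in the values of replicate 1 was not tested.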
